A study of Mus musculus with 2 samples.

Results

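Genes of the cell division cycle were followed across the cell types of mouse small intestinal epithelium as a set of 48, taken by gene symbol from the 55357 genes in the deposited tables. All 48 were found. The set holds 25 genes of G2 and mitosis, 18 genes of DNA replication and S phase, the 2 G1 cyclins Ccnd1 and Ccnd2, and Hmgb2, Stmn1 and Tubb5, 3 genes of chromatin and microtubules that dividing cells use heavily. The data came from 1 droplet library of Adipfl/fl mice, which carry a floxed adiponectin gene and no Cre, and 1 library of Adipfl/flpVilli-CreT mice, in which Cre under the villin promoter removes adiponectin from gut epithelial cells. Both libraries were prepared from crypt-enriched small intestine of 8-week-old male mice pooled by genotype, and the floxed gene was common to both. The question was whether dividing crypt cells differ when epithelial adiponectin is missing. With 1 library per genotype there was no replicate and no test, so every interval given here is an exact 95% interval that covers counting error only, and a difference between the genotypes cannot be told apart from a difference between the libraries.

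A cell that commits to division first makes D-type cyclins, which with their kinases inactivate the retinoblastoma protein and release the E2F factors. E2F then switches on cyclin E and the genes that load and fire replication origins, among them Cdc6, Cdt1 and the subunits Mcm2 to Mcm7 of the replicative helicase. Later in the cycle the MuvB complex, with NF-Y, B-Myb and FoxM1, raises the genes of mitotic entry, the spindle, the kinetochore and chromosome separation. In the gut, division takes place largely in the crypts, where Wnt-driven stem cells and their transit-amplifying daughters cycle, and it stops as cells move onto the villus.

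The library of Adipfl/fl mice held 9791 barcodes with 42150623 unique molecular identifiers (UMIs), and that of Adipfl/flpVilli-CreT mice 11838 barcodes with 63370798 UMIs. Of these, 7739 and 9818 had more than 500 genes, and 3069 and 5555 cells also had under 25% of their UMIs from mt- genes, with a median of 4838 and 4749 UMIs. The limits are those given in the study's methods, but the study kept more cells of each library than they left here, so its cells are not the ones described. The 48 genes made up 0.202% and 0.175% of their UMIs. The libraries shared 31 barcodes, of which 3 passed the filter in both. Adipoq, the deleted gene, was counted 1 time over all barcodes of Adipfl/fl mice and 0 times in the other library, too rarely to check the genotype labels. Cells were clustered without the 48 genes, 40 further cell cycle genes, 32 regulators of the cycle and the replication histones, and clusters were named "-like" from marker genes. Doublets were not removed.

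Both gene groups peaked in crypt cells and in a part of the T cells, and both were far lower in differentiated epithelium. The stem-like cluster carried 12 of 12 stem cell markers and split into 2 large sub-clusters, a split added once its makeup was known. Markers of a sub-cluster were counted where they were at least 2-fold higher than in the other sub-clusters together. A marker not counted can still be present. The first, with 41 cells from Adipfl/fl and 124 from Adipfl/flpVilli-CreT mice, was led by Ccl9, Olfm4 and Slc12a2, held all 12 stem markers and also 7 Paneth cell and 5 fibroblast or muscle markers, and is called Olfm4-led here. The second, with 41 and 84 cells, was led by Mgat4c, Reg1, Ms4a18 and Cdkn2b, held no stem marker and 6 markers of the villus bottom, and is called Reg1-led. Of the 2 small sub-clusters that remained, 54 of 55 cells in the first and 24 of 27 in the second came from Adipfl/flpVilli-CreT mice. These were led by goblet and enteroendocrine genes and by T cell and enterocyte genes, and they are called mixed.

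The 18 S phase genes summed to 1249 counts per 1000000 UMIs (CPM) in the Olfm4-led cells of Adipfl/fl mice and 1265 CPM in those of Adipfl/flpVilli-CreT mice. In the Reg1-led cells they summed to 512 and 510 CPM. The 25 mitosis genes summed to 4265 and 2956 CPM in Olfm4-led cells and to 4530 and 4293 CPM in Reg1-led cells. Villus bottom-like cells, the youngest enterocytes, had 137 and 136 CPM of the S phase genes and 123 and 85.3 CPM of the mitosis genes. Villus enterocyte-like cells held 75.7 and 74.7 CPM of the S phase genes, of which Pcna alone was 42.5 and 37.5 CPM, and 29.99 and 27.8 CPM of the mitosis genes. Among secretory cells, goblet-like cells had 50.7 and 59.0 CPM for S phase and 23.2 and 28.0 CPM for mitosis, and enteroendocrine-like cells 85.2 and 114 CPM and 22.6 and 45.3 CPM. Tuft-like cells stood higher, at 133 and 179 CPM and at 183 and 140 CPM, but a single cell held 25.3% and 20.7% of the set's UMIs there. An epithelial cluster of 751 cells that stayed unnamed held 20.3 and 31.2 CPM of the mitosis genes. Another unnamed one, of 217 cells, held 80.0 and 290 CPM. Both are counted wherever all epithelial cells are given. Mki67, the proliferation antigen Ki67, was 316 CPM in Olfm4-led and 371 CPM in Reg1-led cells over both libraries, against 2.33 CPM in goblet-like and 1.88 CPM in villus enterocyte-like cells, with 0 UMIs in the enteroendocrine-like cells. The values in these differentiated cells, at median depths of 6072 and 4060 UMIs in goblet-like and villus enterocyte-like cells, include whatever free RNA added. T cells not called cycling held 583 and 615 CPM of the S phase genes, more than Reg1-led cells, and 313 and 202 CPM of the mitosis genes. Myeloid-like cells differed between the libraries, with 46.7 CPM of mitosis genes in 61 cells and 727 CPM in 31 cells, and a single cell held 60.5% of the set's UMIs in the latter.

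**Figure D1:**
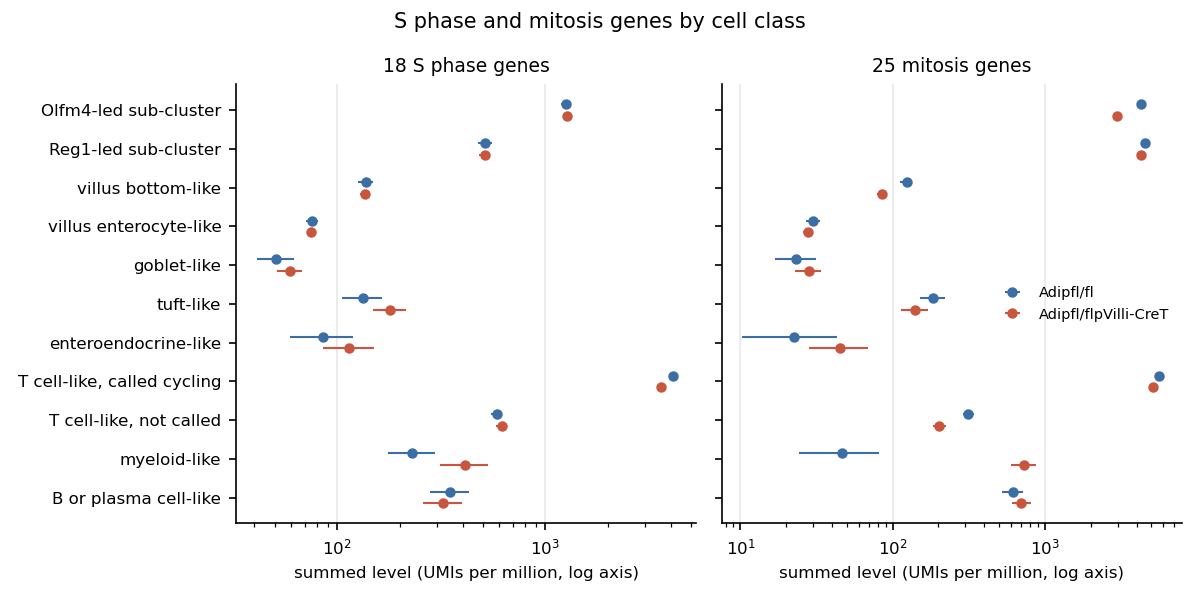
Summed level of the 18 S phase genes (left) and the 25 mitosis genes (right) by cell class, in CPM on a log axis, with a point for each library and a bar for the exact 95% Poisson interval. Crypt sub-clusters and cycling T cells lie above 500 CPM in both panels, whereas goblet-like and villus enterocyte-like cells lie below 80.

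The D cyclins, which link growth signals to the start of the cycle, were not spread like the other members. Ccnd1 was 436 and 417 CPM in the Olfm4-led cells of Adipfl/fl and Adipfl/flpVilli-CreT mice, and 416 and 418 CPM in the Reg1-led cells. It was 85.7 and 63.1 CPM in villus bottom-like cells, 5.06 and 6.06 CPM in villus enterocyte-like cells and 7.39 and 10.1 CPM in goblet-like cells. In cycling T cells 1 UMI of Ccnd1 was counted in each library, or 0.890 and 0.911 CPM, although these cells carried as much mitosis gene RNA as the crypt. B or plasma cell-like cells held 693 and 361 CPM, on 30 and 29 cells. This class was led by immunoglobulin genes but also by Siglech, Ly6d and Cox6a2, so it may be mixed. Without the 5% of barcodes with the most UMIs, 23 cells were named B or plasma cell-like. Another cluster of 37 cells, best matched by myeloid markers, then stayed unnamed. Which cells of the class carried Ccnd1 was not tested.

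Ccnd2, a D cyclin with overlapping function, was 766 and 837 CPM in Olfm4-led cells and 388 and 490 CPM in Reg1-led cells. Unlike Ccnd1 it was also plentiful in goblet-like cells, which had almost no mitosis gene RNA. Goblet-like cells held 432 and 406 CPM, with a UMI in 175 of 225 and 328 of 408 cells. T cells not called cycling held 602 and 540 CPM, more than the 326 and 353 CPM of cycling T cells. T cells not called cycling were not free of mitosis gene RNA (313 and 202 CPM), and 90 of these 742 cells lay just below the limit of the call. The enteroendocrine-like cells fell into 2 clusters that differed in this gene. Cells led by Reg4 and Tph1, the serotonin-producing type, held 1713 and 1464 CPM, and cells led by Ghrl and Cck, a peptide hormone type, held 60.9 and 40.8 CPM. The fold between them was 30.7 over both libraries. Of all 6330 genes with at least 20 UMIs in these 2 clusters, 21.4% were at least 1.5-fold higher in the Reg4 and Tph1 cells. All 24 Reg4 and Tph1 cells of Adipfl/fl mice and 27 of 28 of Adipfl/flpVilli-CreT mice had a Ccnd2 UMI. The same 52 cells held 0 UMIs of Ccnd1, which allows up to 8.94 CPM, and 0 of Mki67. Ccnd2 was picked with these values in view.

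**Figure D2:**
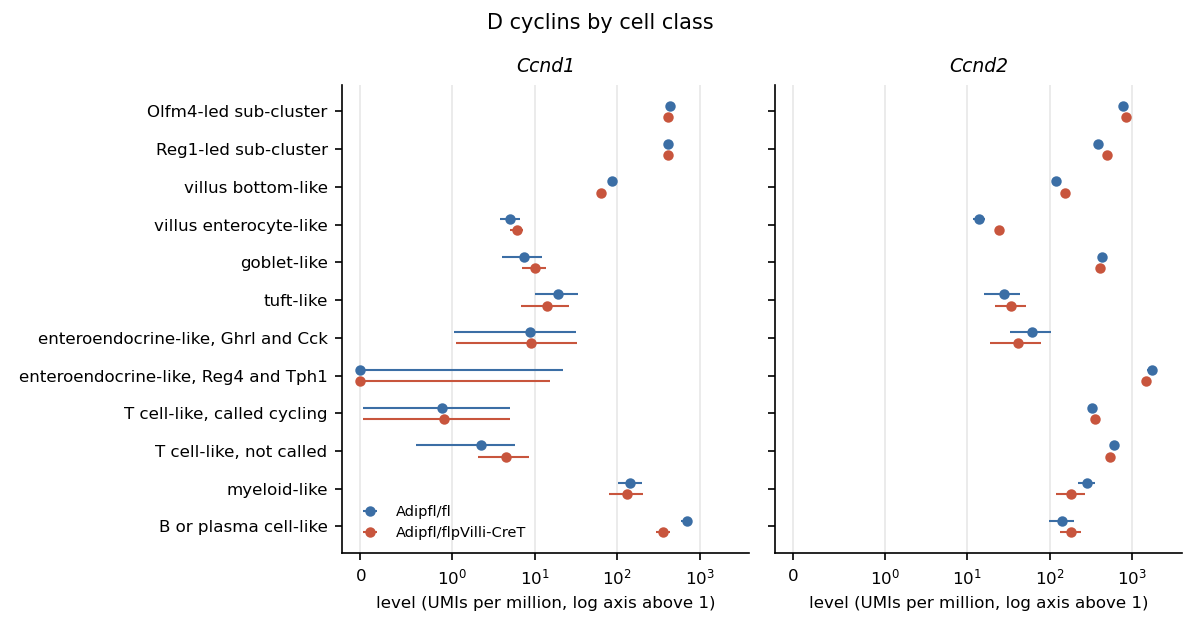
Level of Ccnd1 (left) and Ccnd2 (right) by cell class, in CPM on an axis that is logarithmic above 1, with a point for each library and exact 95% Poisson intervals. Ccnd1 is near 420 in both crypt sub-clusters and near 1 in cycling T cells, and Ccnd2 is highest in the enteroendocrine-like cells led by Reg4 and Tph1.

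The 2 main crypt sub-clusters differed in the S phase genes in the same direction in both libraries. Over both libraries the S phase sum was 0.405 times as high in Reg1-led as in Olfm4-led cells (0.384 to 0.427), with 0.410 in Adipfl/fl and 0.403 in Adipfl/flpVilli-CreT mice. The helicase genes Mcm2 to Mcm7 were further apart, going from 377 to 88.6 CPM in Adipfl/fl mice and from 448 to 93.6 CPM in Adipfl/flpVilli-CreT mice, a fold of 0.214 (0.190 to 0.241). At least 1.5-fold lower were 15 of the 18 S phase genes, where 19.7% of all 11011 genes tested were, and all 18 were below 1 in each library. The lowest fold over both libraries was that of Cdt1, which loads the helicase onto origins and went from 30.9 to 6.11 CPM in Adipfl/fl and from 50.8 to 1.69 CPM in Adipfl/flpVilli-CreT mice. Ccne1, the cyclin that drives entry into S phase, went from 17.4 to 1.53 CPM and from 12.9 to 1.27 CPM. Dut, which keeps uracil out of DNA, went from 170 to 26.7 CPM and from 169 to 21.6 CPM. The 3 that did not pass were Pclaf, Rrm2 and Tyms. Pclaf, a PCNA-binding factor, had a fold of 0.911, Rrm2, a ribonucleotide reductase subunit, of 0.77, and Tyms, thymidylate synthase, of 0.73.

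Mitosis genes went the other way as a sum, though less evenly and mostly in 1 library. Their sum was 1.33 times as high in Reg1-led cells (1.30 to 1.36), with 1.06 (1.02 to 1.10) in Adipfl/fl and 1.45 (1.41 to 1.49) in Adipfl/flpVilli-CreT mice. Above 1 were 16 of 25 genes in Adipfl/fl mice, with 9 below, and 24 of 25 in Adipfl/flpVilli-CreT mice. At least 1.5-fold higher over both libraries were 7 of 25 genes, where 12.9% of all genes were. Cdc20, the activator of the anaphase-promoting complex, went from 174 to 257 CPM and from 150 to 303 CPM (1.84, 1.66 to 2.03). Ube2c, the ubiquitin-conjugating enzyme of the same complex, went from 529 to 659 CPM and from 352 to 618 CPM (1.59). Kif23, a kinesin of the central spindle, and Aurka, the centrosomal Aurora kinase, had folds of 1.74 and 1.65. Top2a, the topoisomerase that untangles chromosomes, was the member furthest in the opposite direction (363 to 180 CPM and 202 to 166 CPM, fold 0.698). Stmn1 and Tubb5, which regulate and build microtubules, were 0.475 and 0.419 times as high. The cells of the sub-clusters had median depths of 26643 and 17549 UMIs. These folds are descriptions, since the sub-clusters were made from the same cells.

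**Figure D3:**
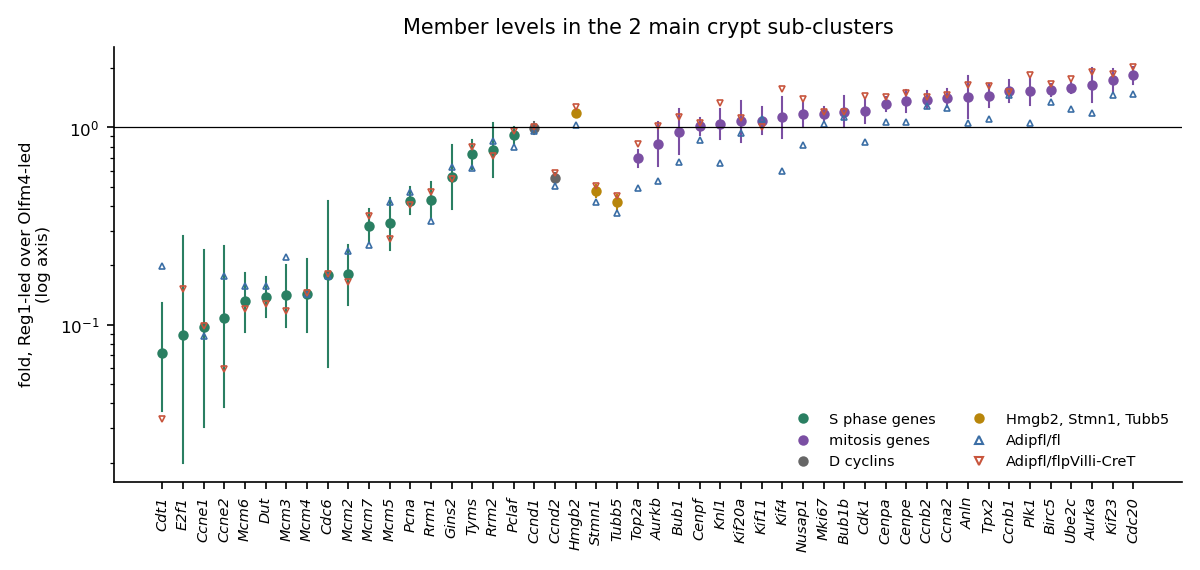
Fold of each of the 48 genes in Reg1-led over Olfm4-led cells (log axis), with filled points and 95% intervals for both libraries together and open triangles for each library. All S phase genes lie below 1, from Cdt1 at 0.07 to Pclaf at 0.91, and mitosis genes lie between Top2a at 0.70 and Cdc20 at 1.84.

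Other regulators of the cycle were taken from a list of 32, of which 31 had at least 20 UMIs in the 2 sub-clusters. In Reg1-led cells 3 were at least 1.5-fold higher, where 12.9% of all genes were, and 13 at least 1.5-fold lower, where 19.7% were. Cdkn2b, the inhibitor p15 of the D cyclin kinases, went from 29.9 to 152 CPM in Adipfl/fl mice and from 16 to 168 CPM in Adipfl/flpVilli-CreT mice, a fold of 8.24 (6.49 to 10.6), and was among the leading genes of the sub-cluster by fold. Rb1, the retinoblastoma gene, was 2.16 times as high and E2f2 1.79 times. The D cyclin kinases themselves were lower, Cdk6 going from 90.7 to 21.4 CPM and from 110 to 13.1 CPM, and Cdk4 to 0.41 of its level. Myc, a Wnt target that promotes growth, had a fold of 0.24 and Wee1, the kinase that holds back Cdk1, of 0.19. Ccnd1 held its level across this boundary (0.988, 0.92 to 1.06), whereas Ccnd2 did not (0.554).

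Cells were called cycling by 40 further cell cycle genes that are not among the 48, at 3 or more UMIs after each cell was thinned to 2000 UMIs. In the stem-like cluster 49 of 85 cells of Adipfl/fl (57.6%, 46.5 to 68.3) and 173 of 283 cells of Adipfl/flpVilli-CreT mice (61.1%, 55.2 to 66.8) passed. Shares were close in the Olfm4-led (56.1% and 58.5%) and Reg1-led (61.0% and 57.1%) cells. Cells that did not pass were not free of the program. The 146 crypt cells below the limit, 79 of them just below at 2 UMIs, still held 3067 CPM of mitosis and 756 CPM of S phase genes. In goblet-like cells 0 of 215 and 0 of 388 passed, which allows shares of up to 1.70% and 0.946%. T cell-like cells passed in 105 of 449 (23.4%) and 109 of 507 (21.5%), and 128 of the 132 cells of 1 T cell cluster did. That cluster was led by histone genes, Pimreg, Rrm2, Mxd3 and Fbxo5. Mxd3 and Fbxo5 were not on the lists of genes left out, so the clustering was not free of every gene tied to the cycle.

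Each cycling cell was then placed by the same 40 genes, as S-leaning or G2M-leaning where more than 2 of 3 of these UMIs came from the S phase or from the G2 and mitosis genes. Crypt and T cells were distributed differently. In the stem-like cluster 42 of 49 cycling cells of Adipfl/fl (85.7%, 72.8 to 94.1) and 127 of 173 of Adipfl/flpVilli-CreT mice (73.4%, 66.2 to 79.8) leaned to G2M, and 3 and 19 to S. The Reg1-led cells leaned to G2M in 24 of 25 and 47 of 48 cases and to S in none, which allows shares of up to 13.7% and 7.40%. In Olfm4-led cells 18 of 23 (78.3%, 56.3 to 92.5) and 38 of 72 (52.8%, 40.7 to 64.7) leaned to G2M. Cycling T cells lay in all phases, with 45 of 105 and 42 of 109 leaning to S and 28 in each library to G2M. Placement used all UMIs of a cell and not the thinned counts, so it rested on unequal depth. The median was 18509.5 UMIs in cycling cells of the stem-like cluster and 9478 in cycling T cells. A shallow cell can be placed by few UMIs, so single placements are coarse. The shares were also not scaled for how abundant each gene group is in a cell type. A different share of G2M-leaning cells in crypt and T cells therefore need not be a difference in phase, which was not tested.

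Most members followed the placement, although none of them had been used for it. Both lists were chosen for the same phases, so this is not independent support. In the stem-like cluster 22 of 25 mitosis genes were at least 1.5-fold higher in G2M-leaning cells, where 20.7% of all 9994 genes were, and 18 of 18 S phase genes at least 1.5-fold lower, where 17.8% were. In T cells the counts were 25 of 25 (12.4% of all genes) and 14 of 18 (15.6%). The S phase genes that did not pass there were Rrm1 (0.976), Rrm2 (1.02), Tyms (0.773) and Pclaf (1.18, 1.03 to 1.36). In the stem-like cluster their folds were 0.358, 0.312, 0.497 and 0.632, in the same order. Ube2c went from 50.1 CPM in S-leaning to 670 CPM in G2M-leaning crypt cells, and from 21.3 to 1246 CPM in T cells. Ccne1 was lower, going from 84.3 to 2.38 CPM in crypt cells and from 59.8 to 14.6 CPM in T cells. Pcna, the sliding clamp, went from 411 to 61.5 CPM and from 502 to 129 CPM.

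A few members behaved differently in the crypt and in T cells. Top2a was close to flat across crypt phases (216 and 252 CPM, fold 1.17, 0.932 to 1.48) and went from 341 to 1227 CPM in T cells (3.59, 3.12 to 4.15). Stmn1 went from 732 to 443 CPM in crypt cells (0.605) but from 387 to 1252 CPM in T cells (3.24), and Tubb5 from 535 to 359 CPM (0.671) but from 682 to 2000 CPM (2.93). Hmgb2, a chromatin protein, was higher in G2M-leaning cells of both kinds, 3.11-fold and 3.07-fold. Ccnd1 and Ccnd2 differed little between the phases of the stem-like cluster, with folds of 0.985 (0.84 to 1.17) and 0.899 (0.79 to 1.02). In the Olfm4-led and Reg1-led cells alone, without the mixed sub-clusters, the folds were 0.932 (0.78 to 1.12) and 0.834 (0.727 to 0.960). The latter interval left out 1. Only 22 crypt cells leaned to S, 3 of them from Adipfl/fl mice, and in the crypt the sub-clusters and the phases overlap. These genes were picked with their values in view, and the differences between the cell types were not tested.

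**Figure D4:**
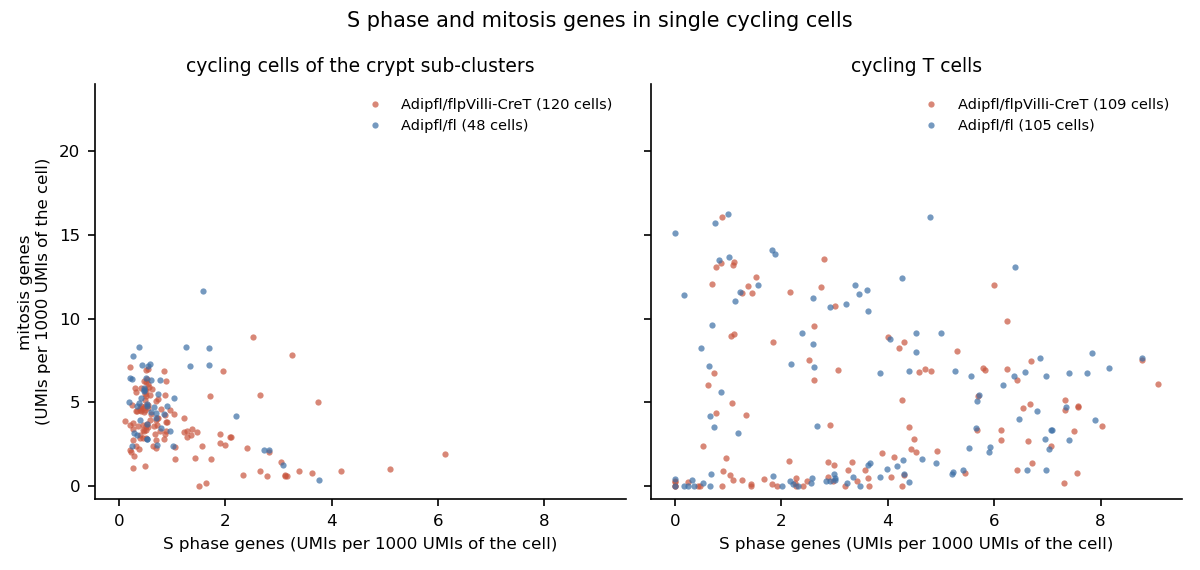
Mitosis against S phase genes in each cycling cell of the Olfm4-led and Reg1-led sub-clusters (left) and each cycling T cell (right), in ‰ of the UMIs of the cell, colored by library. Crypt cells crowd at low S phase levels with a median of 88.1% and 85.1% mitosis genes among the S phase and mitosis UMIs, whereas T cells spread along both axes with medians of 47.4% and 41.2%.

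Promoter letters were counted in the listed mitosis and S phase genes, not in genes grouped by how they moved between phases. Promoters, taken as 250 bases before to 50 after the transcription start (RefSeq, GRCm38.p6, the patch release of mm10), were found for 38 of the 48 genes. They were searched on both strands for CCAAT, the NF-Y box, for TTTGAA and TTCGAA, the core of the cell cycle homology region (CHR) bound by MuvB, and for TTTGGCGC, TTTCCCGC, TTTCGCGC and TTTGCCGC, forms of the E2F site. A CHR core was present in 17 of 21 mitosis promoters and 2 of 15 S phase promoters, against 21.7% of all 27025 genes. CCAAT stood in 17 of 21 and 9 of 15, against 41.1%, and both elements together in 15 of 21 and 2 of 15, against 9.65%. E2F forms stood in 1 of 21 mitosis and 7 of 15 S phase promoters, against 2.61%. Different kinds of motif overlapped in 1 of the 39 promoters searched (Mcm7 has 2). A match is a description and not a shown binding site. Matches did not follow the size of the phase difference in every gene. Nusap1 and Birc5, 49.4-fold and 6.78-fold higher in G2M-leaning cells of the stem-like cluster, held none. Top2a, at 1.17, held 6 CCAAT and 4 CHR matches. These genes were picked with their values in view, and the link between motifs and folds was not tested. The first set below shows mitosis genes that peaked in G2M-leaning cells and the second S phase genes that were high in S-leaning and in Olfm4-led cells. Each stretch is on the strand of its gene, 5′ to 3′, and ends before the transcription start, with motif letters in capitals, read on either strand.
Mki67, chr7:135716466-135716573, minus strand: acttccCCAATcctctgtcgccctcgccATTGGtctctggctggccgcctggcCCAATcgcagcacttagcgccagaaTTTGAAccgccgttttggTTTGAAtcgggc
Ccnb2, chr9:70421565-70421727, minus strand: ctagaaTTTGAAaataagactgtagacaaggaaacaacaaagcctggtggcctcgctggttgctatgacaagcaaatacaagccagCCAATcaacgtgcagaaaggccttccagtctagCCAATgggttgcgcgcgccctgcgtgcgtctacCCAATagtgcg
Cdc20, chr4:118437344-118437402, minus strand: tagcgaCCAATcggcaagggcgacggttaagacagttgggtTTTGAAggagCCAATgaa
Mcm5, chr8:75109350-75109497, plus strand: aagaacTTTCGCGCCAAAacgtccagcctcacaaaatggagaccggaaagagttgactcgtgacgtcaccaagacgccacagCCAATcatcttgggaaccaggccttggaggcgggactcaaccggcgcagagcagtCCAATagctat
Mcm6, chr1:128359709-128359821, minus strand: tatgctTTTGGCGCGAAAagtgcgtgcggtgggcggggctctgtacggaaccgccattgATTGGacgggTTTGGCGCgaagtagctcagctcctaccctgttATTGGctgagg
Cdc6, chr11:98908007-98908026, plus strand: tggagaGCGGGAAAtcgcct
Long runs of capitals in Mcm5 and Mcm6 are 2 E2F forms that overlap on opposite strands. Mcm6 (255.6 CPM in S-leaning and 18.8 CPM in G2M-leaning crypt cells) and Cdc6 (52.7 and 2.38 CPM) were low in the same cells in which Ccnb2 (21.1 and 250.1 CPM) and Cdc20 (13.2 and 274 CPM) were high.

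Cycling T cells, which do not use the villin promoter, gave a non-epithelial cycle in the same libraries. Set beside the cycling cells of the Olfm4-led and Reg1-led sub-clusters, the S phase sum was 4089 against 859 CPM in Adipfl/fl and 3576 against 1018 CPM in Adipfl/flpVilli-CreT mice, or 3.97-fold higher over both (3.83 to 4.12). All 18 S phase genes were at least 1.5-fold higher, where 25.4% of all 11513 genes were. Rrm2 went from 27.4 to 222 CPM (8.12), Dut from 98.0 to 742 CPM (7.57) and E2f1, the activator at the head of the program, from 6.44 to 46.4 CPM (7.20). The mitosis sum differed less, 1.28-fold (1.25 to 1.30), with 11 genes at least 1.5-fold higher and 3 at least 1.5-fold lower, where 36.1% of all genes were lower. The 3 lower were Cdc20 (0.475), Ccnb1, the cyclin of mitotic entry (0.56), and Kif23 (0.666). In G2M-leaning cells of both libraries none of these 3 was lower in T cells. There Cdc20 was 284 CPM in the crypt and 306 CPM in T cells, Ccnb1 167 and 200 CPM, and Kif23 169 and 197 CPM. Depth differed, with a median of 9478 UMIs in the T cells and 25609.5 in the crypt cells. Placement differed too. G2M-leaning were 42 of 48 and 85 of 120 of these crypt cells, and 28 of 105 and 28 of 109 T cells. Among S-leaning cells, 3 and 15 in the crypt and 45 and 42 T cells, the S phase genes were closer. They summed to 3118 and 3256 CPM in the crypt and 4638 and 4169 CPM in T cells. The part of placement in these folds was not tested.

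Between the genotypes, the share of epithelial cells called cycling was 58 of 2368 (2.45%, 1.87 to 3.15) in Adipfl/fl and 186 of 4701 (3.96%, 3.42 to 4.55) in Adipfl/flpVilli-CreT mice, a ratio of 1.62 (1.197 to 2.21). Without the mixed sub-cluster that 1 library almost alone supplied the ratio was 1.26 (0.926 to 1.75), and without both mixed sub-clusters 1.19 (0.869 to 1.66). With a call at 2 UMIs it was 1.18 (0.967 to 1.44) and at 5 UMIs 1.30 (0.849 to 2.04). It was higher, 2.16 (1.46 to 3.28), without the 5% of barcodes with the most UMIs, and 2.12 (1.61 to 2.82) with the mt- share taken from 13 protein-coding genes. The crypt enrichment of each preparation can set this share, and its part was not tested.

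Within the cycling epithelial cells, the 2 gene groups differed in opposite directions. The mitosis genes summed to 4815 CPM in 58 cells of Adipfl/fl and 3776 CPM in 186 cells of Adipfl/flpVilli-CreT mice, a fold of 0.784 (0.763 to 0.806), and the S phase genes to 838 and 1006 CPM, a fold of 1.2 (1.13 to 1.28). The size of the mitosis fold depended on how much deep cells weighed. It was 0.889 with each cell thinned to 2000 UMIs and 0.926 as a mean over cells. Its 18 alternatives lay between 0.756 and 0.926. Per cell, the lower quartile of the mitosis level was 2370 and 2369 CPM, the median 4373 and 3845 CPM and the upper quartile 6211 and 5447 CPM. The ratio of mitosis to S phase UMIs was 5.75 and 3.75, or 0.653 times as high (0.611 to 0.699). All 25 mitosis genes were below 1, where 50.01% of all 10494 genes were above 1, and 5 were at least 1.5-fold lower, where 4.46% of all genes were. Nusap1, a spindle microtubule protein, was 153 and 94.0 CPM (0.617, 0.525 to 0.725). Bub1b, the checkpoint kinase BubR1, was 88.4 and 51.8 CPM (0.586). Cenpe, the kinetochore kinesin, was 193 and 127 CPM, Knl1, its kinetochore scaffold, 99.7 and 65.1 CPM, and Anln, the anillin of the cleavage furrow, 55.8 and 34.7 CPM. The mitosis genes with the most UMIs were closer, Ube2c at 678 and 499 CPM (0.735), Mki67 at 446 and 341 CPM (0.766), Top2a at 295 and 244 CPM (0.827), Cenpa, the centromeric histone, at 334 and 289 CPM (0.867) and Birc5, survivin, at 427 and 406 CPM (0.951, 0.870 to 1.04).

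Of the 18 S phase genes 7 were at least 1.5-fold higher, where 8.65% of all genes were, and 5 of these were helicase subunits. The sum of Mcm2 to Mcm7 was 185 and 307 CPM, a fold of 1.66 (1.47 to 1.89), and 1.74 without the cell of each library that held most of these UMIs. Within the sub-clusters, cycling or not, the fold of this sum was closer to 1, at 1.19 (1.06 to 1.33) in Olfm4-led and 1.06 (0.840 to 1.33) in Reg1-led cells. Over the whole stem-like cluster, cycling or not, it was 1.28 (1.16 to 1.42). In the cycling cells of both sub-clusters together it was 1.72 (1.51 to 1.96). The libraries drew their cycling cells from the sub-clusters in different proportions, with 23 Olfm4-led and 25 Reg1-led cells in Adipfl/fl mice, and 72 and 48 in Adipfl/flpVilli-CreT mice, where 42 and 11 more came from the mixed sub-clusters. In the cycling cells of each sub-cluster alone, the S phase fold was 1.10 (1.02 to 1.18) in Olfm4-led and 0.959 (0.855 to 1.08) in Reg1-led cells, and the mitosis fold 0.641 (0.615 to 0.668) and 0.962 (0.926 to 0.999). Mcm7 was 47.5 and 87.3 CPM (1.84, 1.44 to 2.37), Mcm6 32.1 and 59.3 CPM (1.85) and Mcm2 24.3 and 43.2 CPM (1.78). Mcm3 and Mcm4 had folds of 1.57 and 1.67. Cdt1 was 16.03 and 31.7 CPM (1.98, 1.30 to 3.12). Cdc6, on 7 and 37 UMIs, had an interval of 0.985 to 5.95. The S phase genes with the most UMIs were closer to 1, with Pclaf at 246 and 226 CPM (0.917), Tyms at 77.8 and 80.2 CPM (1.03), Pcna at 96.2 and 115 CPM (1.19) and Dut at 78.3 and 103 CPM (1.31). Ccnd2 was 513 and 671 CPM (1.31, 1.21 to 1.41), Ccnd1 407 and 394 CPM (0.967), Hmgb2 2024 and 1845 CPM (0.912), Stmn1 442 and 483 CPM (1.09) and Tubb5 357 and 408 CPM (1.14).

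Other values moved with these groups. Goblet and Paneth cell markers summed to 2231 and 5560 CPM in the cycling epithelial cells of Adipfl/fl and Adipfl/flpVilli-CreT mice, T cell markers to 27.9 and 270.1 CPM and stem cell markers to 1157 and 2145 CPM, and the median depth was 22496 and 16741.5 UMIs. Their part in the folds was not tested. A single cell held 8.87% of the set's UMIs among the 58 cells, and without the richest cell of each library the ratio of mitosis to S phase UMIs was 0.703. In the cycling cells of the Olfm4-led and Reg1-led sub-clusters alone, 48 and 120 of these cells, 5 of 25 mitosis genes were at least 1.5-fold lower, where 4.78% of all genes were, and 7 of 18 S phase genes at least 1.5-fold higher, where 8.05% were. When the 5% of barcodes with the most UMIs were left out of each library, which removes many crypt cells, that ratio was 0.876 (0.774 to 0.989) and the S phase fold 1.06 (0.949 to 1.18).

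Over the whole stem-like cluster, cycling or not, mitosis genes were 4392 and 3590 CPM (0.817, 0.798 to 0.837) and S phase genes 834 and 930 CPM (1.11, 1.06 to 1.17). Cenpf, a kinetochore protein, was 252 and 167 CPM (0.661), Cenpe 179 and 119 CPM (0.663) and Anln 51.3 and 33.3 CPM (0.649), the 3 mitosis genes at least 1.5-fold lower, where 4.1% of all 11237 genes were. Cdt1, at 17.2 and 27.5 CPM (1.60, 1.13 to 2.31), was the only S phase gene at least 1.5-fold higher, where 8.3% of all genes were. The ratio of mitosis to S phase UMIs was 0.733 times as high (0.693 to 0.776). Without the 5% of barcodes with the most UMIs in each library and with the rest clustered anew it was 0.991 (0.897 to 1.09). It was 0.753 (0.611 to 0.925) with each cell thinned to 2000 UMIs, 0.754 as a mean over cells and 0.776 without the richest cell of each library.

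In the Olfm4-led cells the mitosis sum was 4265 CPM in 41 cells of Adipfl/fl and 2956 CPM in 124 cells of Adipfl/flpVilli-CreT mice (0.693, 0.668 to 0.719), with 0.886 (0.826 to 0.950) without the 5% of barcodes with the most UMIs, which left 28 and 90 cells. Goblet and Paneth cell markers were 4645 and 7306 CPM in these cells and T cell markers 31.8 and 226.8 CPM, and their part was not tested. At least 1.5-fold lower were 14 of 25 mitosis genes, where 6.23% of all 9981 genes were. All 25 were below 1, where 50.06% of all genes were above 1. The lowest folds were those of the cytokinesis and kinetochore genes Anln (50.2 and 23.0 CPM), Kif4 (59.8 and 27.5 CPM) and Knl1 (111 and 51.5 CPM), each at 0.46. Nusap1 was 148 and 71.0 CPM (0.48). The mitotic kinases followed, Plk1 at 94.5 and 50.4 CPM (0.53), Aurkb at 54.0 and 29.6 CPM (0.55) and Aurka at 58.8 and 38.3 CPM (0.65). Top2a was 363 and 202 CPM (0.56) and Cdk1, the kinase of mitotic entry, 136 and 83.1 CPM (0.61). Others were closer to 1, Birc5 at 331 and 307 CPM (0.93, 0.82 to 1.05), Ccnb2 192 and 174 CPM (0.91) and Cdc20 174 and 150 CPM (0.86). The S phase sum did not differ beyond counting error (1.01, 0.950 to 1.08), and Cdt1, at 30.9 and 50.8 CPM (1.65), was the only S phase gene at least 1.5-fold higher, where 8.98% of all genes were.

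In cells of the Olfm4-led group that leaned to G2M, 18 of Adipfl/fl and 38 of Adipfl/flpVilli-CreT mice, mitosis genes were 5733 and 3920 CPM (0.684, 0.653 to 0.716) and S phase genes 925 and 718 CPM (0.777). Per cell, the median mitosis level was 5664 CPM with quartiles of 4465 and 7279 in Adipfl/fl, and 3576 CPM with quartiles of 3078 and 4621 in Adipfl/flpVilli-CreT mice. In Olfm4-led cells not called cycling the sum was 2456 and 2370 CPM (0.965, 0.890 to 1.05). Genes named for the sub-clusters were picked with their values in view.

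In Reg1-led cells mitosis genes were 4530 CPM in 41 cells and 4293 CPM in 84 cells (0.948, 0.918 to 0.979), and 1.01 (0.944 to 1.08) without the deepest 5% of barcodes, which left 19 and 51 cells. S phase genes were 512 and 510 CPM (0.996, 0.906 to 1.10). Kif11, the spindle kinesin Eg5, was the only one of 25 mitosis genes at least 1.5-fold lower (112 and 72.8 CPM, 0.65), where 5.59% of all genes were. Mcm7, at 25.2 and 43.2 CPM (1.71, 1.15 to 2.62), was the only S phase gene at least 1.5-fold higher of the 13 with at least 20 UMIs, where 6.48% of all genes were, and Mcm5 was lower, at 21.4 and 13.1 CPM, with an interval that held 1. The difference between the sub-clusters in the genotype fold was not tested.

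**Figure D5:**
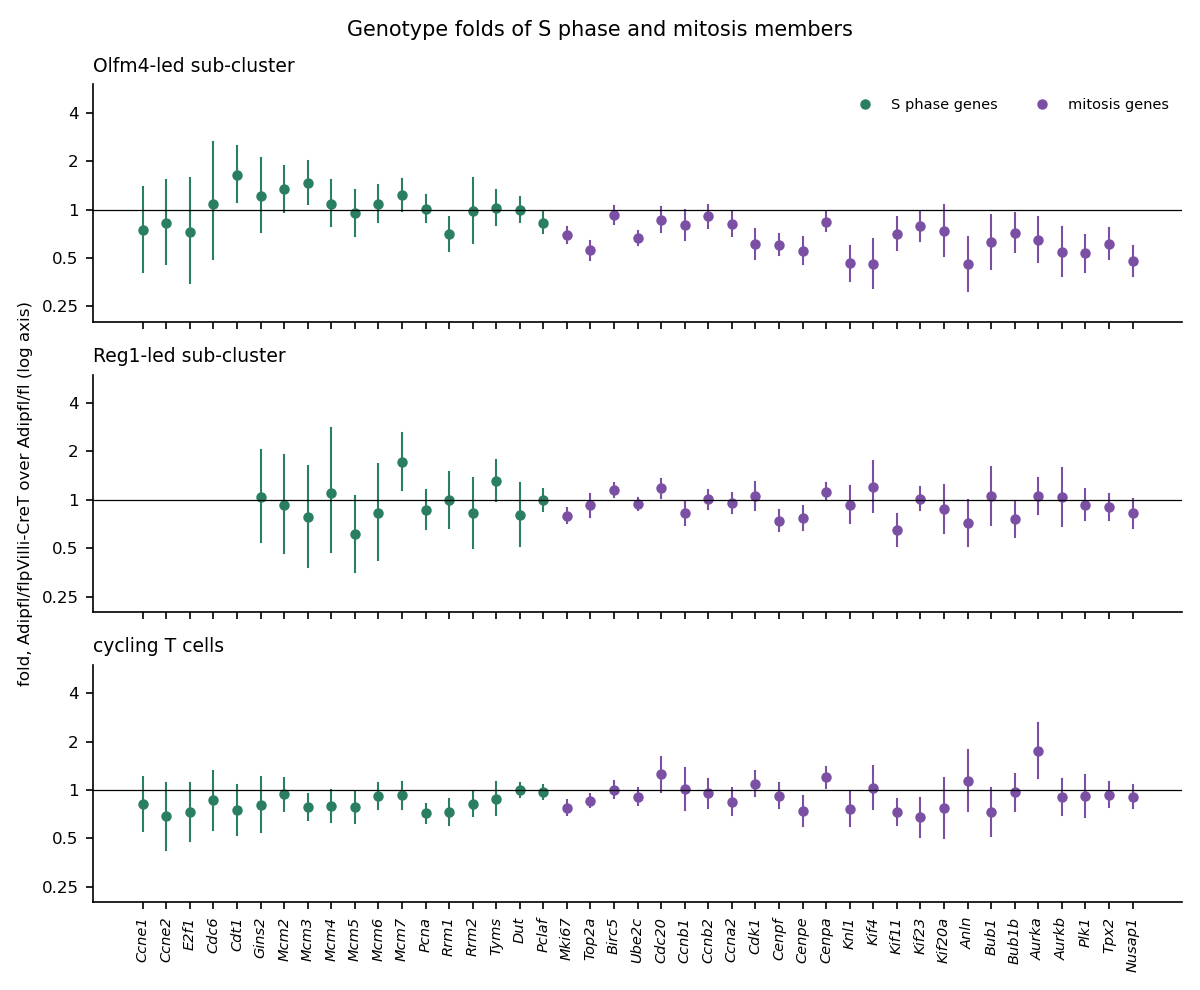
Fold of each S phase and mitosis gene in Adipfl/flpVilli-CreT over Adipfl/fl mice (log axis) in Olfm4-led cells, Reg1-led cells and cycling T cells, with exact 95% intervals. Genes with fewer than 20 UMIs are left out. In Olfm4-led cells all 25 mitosis genes lie below 1, in Reg1-led cells 15 do and in cycling T cells 17. Of all genes tested, 50.06%, 47.6% and 46.8% lie above 1, in the same order.

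In cycling T cells both groups were lower in Adipfl/flpVilli-CreT mice, S phase genes at 4089 and 3576 CPM (0.874, 0.838 to 0.913) and mitosis genes at 5656 and 5131 CPM (0.907, 0.875 to 0.941). The ratio of the 2 groups was 1.38 and 1.43, or 1.04 times as high (0.981 to 1.10). No S phase gene passed 1.5-fold in either direction, where 8.75% of all 8442 genes were higher and 9.33% lower. Pcna was 476 and 341 CPM (0.718), and Mcm2 to Mcm7 summed to 1129 and 965 CPM (0.855). Aurka, at 39.1 and 68.3 CPM (1.74, 1.19 to 2.59), was the only mitosis gene past 1.5-fold. Goblet and Paneth cell markers differed in these cells too, 194 against 9741 CPM, and their part was not tested.

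Over all epithelial cells, with no call of cycling, the mitosis sum was 517 CPM in 2507 cells and 522 CPM in 4940 cells (1.01, 0.988 to 1.03) and the S phase sum 166 and 202 CPM (1.21, 1.17 to 1.26). The mitosis fold here was 1.81 without the 5% of barcodes with the most UMIs and 0.898 without both mixed sub-clusters. It was 1.33 (1.23 to 1.44) with each cell thinned to 2000 UMIs and 1.46 as a mean over cells. Its direction thus depended on which cells were kept, and its size also on how much deep cells weighed.

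Of the 32 regulators, 31 had at least 20 UMIs in the cycling epithelial cells, 2 at least 1.5-fold higher (8.65% of all genes) and 4 at least 1.5-fold lower (4.46%). Cdk6, a D cyclin kinase, was 40.4 and 63.4 CPM (1.57, 1.197 to 2.08) and Cdc7, the kinase that fires origins, 6.53 and 11.1 CPM with an interval that held 1. Cdkn1c, the inhibitor p57, was 28.5 and 7.54 CPM (0.26, 0.16 to 0.43), and in the Olfm4-led cells 41.5 and 10.4 CPM (0.25, 0.15 to 0.41). Cdkn1c was also lower in goblet-like cells, on 13 and 7 UMIs (0.28, 0.09 to 0.75). Cdc25b, a phosphatase that activates Cdk1, was 55.8 and 32.7 CPM (0.59), Fzr1, the late mitotic activator of the anaphase-promoting complex, 37.4 and 23.1 CPM (0.62) and Espl1, separase, 29.7 and 16.6 CPM (0.56). In cycling T cells 1 of 28 regulators was at least 1.5-fold higher, where 8.75% of all genes were, and 5 were lower, where 9.33% were. Cdkn1a, the inhibitor p21, was 19.6 and 39.2 CPM (2.00, 1.17 to 3.51), while Ccnd3, the third D cyclin, was 110 and 71.9 CPM (0.65), E2f7, a repressor of E2F targets, 45.4 and 22.8 CPM (0.50), Cdc25a 78.3 and 48.3 CPM (0.62) and Cdc7 60.5 and 38.2 CPM (0.63). Whether these genes differ between the cell types was not tested.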

How the data were processed

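The submitters demultiplexed 10x 3′ reads with bcl2fastq 5.0.1 and aligned them to mm10 (submitters' processing notes) with Cell Ranger (7.1.0 in the table header). The authors deposited raw UMI counts per gene and barcode, 1 matrix for each genotype, with no replicates pooled after sequencing. Members, gene lists and rules were chosen with earlier results of these data known.

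Barcodes with more than 500 genes and under 25% mt- UMIs were kept. Clusters came from Seurat 5.3.0 (R 4.3.3, 2000 variable genes less the listed cell cycle genes, 20 components, resolution 0.8), and were named from at least 3 markers. Counts were summed per library and class, and given per 1000000 UMIs (CPM), never divided by gene length, so a gene is compared across cells and not with another gene. Poisson, binomial and conditional intervals (scipy 1.17.1, numpy 2.4.6, pandas 2.3.3, Python 3.11.15) are exact at 95%. Figures used matplotlib 3.10.9. A gene was counted as different at 1.5-fold with at least 20 UMIs. Named genes were the 5 mitosis and 5 S phase members with the most UMIs, those past 1.5-fold with an interval off 1, the other 5 members, and regulators by the same limits. Only the intervals of folds and ratios were tested on simulated data, drawn as Poisson counts without variation between cells or libraries. The clustering, naming, cycling call and placement were not. Alternatives changed the filters, clustering, depth, cycling call and cells kept.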

Additional observations from a re-analysis of the deposited data

Results flagged for a closer look

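The folds between the genotypes lay on opposite sides of 1 in epithelial and T cells for 3 values, and the difference between the cell types was not tested. The summed S phase genes were 1.2 times as high in cycling epithelial cells of Adipfl/flpVilli-CreT as of Adipfl/fl mice, and 0.874 times as high in cycling T cells. For the helicase genes Mcm2 to Mcm7 the folds were 1.66 and 0.855. Over all cells of a sub-cluster, cycling or not, the fold was 1.19 in Olfm4-led and 1.06 in Reg1-led cells. It was 1.28 over the whole stem-like cluster, cycling or not. The sub-clusters made up different parts of the cycling cells of the libraries, and the part of this in the fold was not tested. The ratio of mitosis to S phase UMIs was 0.653 times as high in cycling epithelial cells and 1.04 times as high in cycling T cells, where the interval of 0.981 to 1.10 held 1 and 5 of 15 alternatives gave a value below 1, so the T cell value has no clear direction.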

How the results depend on the processing

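No paired analysis was possible because each genotype had 1 library, and leaving out a replicate was not possible for the same reason. Of the recomputed values of the 10 main results, 102 stayed within the counting interval of the reported value, 38 left it and 1 left it across 1, away from an interval that excluded 1, and the cause of these shifts was not tested. Some of the 102 could hardly move. Resolutions of 0.4 and 1.2, 30 components, and keeping the cell cycle genes left the folds and ratios in cycling epithelial and cycling T cells unchanged. For those values the clustering decided only which cells were epithelial or T cells, so the count of 102 does not measure stability. Of all 141 values 9 lay on the other side of 1. These were 3 for the mitosis fold in all epithelial cells and 5 for the ratio in cycling T cells, whose reported intervals held 1, and 1 for the mitosis fold in Reg1-led cells, whose interval did not. Without the 5% of barcodes with the most UMIs, which removes many crypt cells, the fold of the mitosis genes was 0.925 in cycling epithelial cells, 1.81 in all epithelial cells, 0.886 in Olfm4-led and 1.01 in Reg1-led cells, where it had been below 1. The S phase fold was then 1.06 in cycling and 1.37 in all epithelial cells, and the mitosis to S phase ratio 0.876 in cycling epithelial, 0.991 in stem-like and 0.952 in cycling T cells. With each cell thinned to 2000 UMIs the mitosis fold was 0.889 in cycling epithelial, 1.33 in all epithelial, 0.730 in Olfm4-led and 0.833 in Reg1-led cells, the S phase fold 1.29 in all epithelial cells, and the ratio 0.706 in cycling epithelial and 0.939 in cycling T cells. As a mean over cells the mitosis fold was 0.926 in cycling and 1.46 in all epithelial cells, the S phase fold 1.37 and 1.35, and the ratio 0.911 in cycling T cells. Without the richest cell of each library the S phase fold was 1.12 in cycling epithelial cells, the mitosis fold 1.05 in all epithelial cells, and the ratio 0.703 in cycling epithelial and 0.973 in cycling T cells. With the cycling call at 2 UMIs the mitosis fold in cycling epithelial cells was 0.836, the ratio 0.716, the ratio in cycling T cells 0.978 and the ratio of cycling shares 1.18, and at 5 UMIs the mitosis fold was 0.760. Without the sub-cluster of 1 library the mitosis fold was 0.756 in cycling and 0.936 in all epithelial cells, and without both mixed sub-clusters it was 0.898 in all epithelial cells, with an S phase fold of 1.13 and a share ratio of 1.19. In all epithelial cells the mitosis fold was 0.975 under 10% mt- UMIs, 1.05 without mixed barcodes, and 1.27 with the mt- share taken from 13 protein-coding genes, where the S phase fold was 1.39. Alternatives that leave out sub-clusters, and all those within the Olfm4-led and Reg1-led cells, were added after seeing the data. At 2000 UMIs per cell the interval of the ratio in cycling epithelial cells widened to 0.548 to 0.902.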
